A study of Rattus norvegicus with 2 samples.

Results

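The sympathetic lineage transcription factors Phox2a, Hand1, Hand2, Gata2, Gata3, Insm1, Isl1 and Tlx2 were described here in sympathetic neurons of the rat stellate ganglion. They were chosen by gene symbol, as 8 named genes among the 25399 listed for the sympathetic neuron cluster. Of these, 7 have a value in both strains, and Insm1 is not analysed here. Stellate ganglia hold the cell bodies of sympathetic neurons that innervate the heart. They were dissociated with collagenase and trypsin, and single cells were sequenced in droplets with 10x Genomics 3' chemistry (scRNAseq). The groups are normotensive Wistar rats and prehypertensive SHRs (spontaneously hypertensive rats), all of them males aged 5 to 6 weeks, and each strain gave 1 library. Wistar is an outbred stock and the SHR is an inbred strain derived from Wistar rats, so the strains differ in more than blood pressure. How many animals went into a library is not given in the sources used here.

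These factors are switched on in migrating neural crest cells once bone morphogenetic protein (BMP) signals from the dorsal aorta reach them. Phox2a, the Hand factors, Gata2, Gata3 and Insm1 are then turned on, drive one another and switch on the noradrenaline genes Th and Dbh. Isl1 is shared with sensory neurons, and Tlx2 is also known from the enteric nervous system. Several of the factors remain expressed in the mature ganglion, where Hand2 and Gata3 are known to maintain noradrenergic identity.

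The authors averaged each gene over the selected neurons of a library, after scaling every neuron to 10000 counts, and deposited that mean on a natural log scale with 1 added. Levels are given here as the mean itself, per 10000 counts. Because 3' chemistry counts each molecule once at its 3' end, levels were compared between genes without division by length. Such comparisons still depend on how fully the annotation covers the 3' end of each gene, which was not checked. Differences are the log2 of 1 plus the SHR mean minus the log2 of 1 plus the Wistar mean, and are smaller than the log2 of the ratio, most of all for genes with low means. Ratios of the means are given beside them. With 1 library per strain no spread, standard error or test between the strains can be given, and every difference below compares these 2 libraries. The smallest mean above 0 was 0.00014 per 10000 in Wistar, shared by 16 genes, and 0.000391 in SHR, shared by 17 genes. If these are worth 1 molecule in the most deeply sequenced neuron, a mean divided by them gives the largest number of molecules it can rest on. The number of neurons is not given by these values, so no counting interval was computed. The paper describes 2 groups of sympathetic neurons, of which 1 also expressed neuropeptide Y. A single mean per gene does not tell what share each group had in a library. A difference in a mean can thus not be told apart from a difference in these shares.

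The neurons had the markers that the authors used for sympathetic neurons, so their presence here is not a separate check of identity. Among them Th, which makes the noradrenaline precursor, was at 10.2 per 10000 in Wistar neurons and 10.1 in SHR neurons. The 6 markers summed to 41.4 in Wistar and 35.1 in SHR, with 5 of them lower in SHR, 3 by a ratio of 1.5 or more, and 1 higher. Of the 7621 genes compared below, 65.6% were lower, 26.5% by that ratio, and 34.4% were higher. The 5 markers that average at least 1 per 10000 were all lower, 3 by that ratio. At that level 45.5% of genes were lower and 11.6% by that ratio. With the median ratio of all genes, given below, set to 1, 3 of the 6 markers were lower and 3 higher. Factors of the sensory lineage were near or at 0. Of 7 such genes, Pou4f1, Neurog1, Neurog2 and Prdm12 were listed at 0 in both libraries, and the highest of the others when the libraries are averaged, Runx1, was listed at 0.0202 per 10000 in Wistar neurons and 0.00665 in SHR neurons. Markers of other cells were low beside Th, but not all were low beside the less abundant factors. The highest when the libraries are averaged, Mbp of glia, was at 1.05 per 10000 in Wistar neurons and 0.632 in SHR neurons. It stood above Gata3, Hand1 and Hand2 in both libraries. Most sums of these markers were lower in SHR. The genes named as leading a sum are those of highest level when the libraries are averaged. Those of 5 glial genes, led by Mbp and S100b, summed to 1.68 per 10000 in Wistar neurons and 0.763 in SHR neurons. The sums of 7 fibroblast genes, led by Col1a1, Dcn and Lum, were 1.02 and 0.203, and those of 7 immune genes, led by Cd74, Lyz2 and Cd68, 0.995 and 0.382. The sums of 5 smooth muscle genes, led by Myh11, were 0.115 and 0.0696, and those of 3 erythrocyte genes, led by Hbb, 0.0669 and 0.0499, although of the erythrocyte genes 1 was lower and 1 higher in SHR. The 6 endothelial markers with a value, which mark a cell type that also expresses Gata2, summed to 0.0872 per 10000 in Wistar neurons and 0.0937 in SHR neurons. Of them 4 were lower in SHR and 2 higher, beside 68.1% lower among the 16389 genes above 0 in either library. Without Tek, at 0.0202 in Wistar and 0.0512 in SHR, the endothelial sums were 0.0670 and 0.0424. Among all these markers Cd3e of T cells, which also express Gata3, and Alas2 of erythroid cells were listed at 0 in both libraries, Prrx1 in Wistar alone and Rgs5 in SHR alone. Whether RNA of other cells had a part in the differences below was not tested.

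Promoter sequences are shown for Phox2a, Tlx2, Hand2 and Hand1, the factors that were higher in SHR. Each is the 250 bases before the start of the gene from RefSeq in the build GRCr8, read 5' to 3' on the strand of the gene. The deposited values were made with another build, Rnor_6.0. Capitals mark matches on either strand to an E-box (CANNTG, the site of basic helix-loop-helix factors such as Hand1 and Hand2), to GATA (the core of GATA factor sites), to TAAT (the core of many homeodomain sites) and to TATAAA, overlaps included.
Phox2a (chr1:165590507-165590756, plus strand): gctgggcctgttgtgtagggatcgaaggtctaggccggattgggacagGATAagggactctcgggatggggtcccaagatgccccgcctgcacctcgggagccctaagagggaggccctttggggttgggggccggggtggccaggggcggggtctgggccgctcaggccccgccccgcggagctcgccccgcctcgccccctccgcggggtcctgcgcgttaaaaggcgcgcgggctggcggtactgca
Tlx2 (chr4:117133360-117133609, minus strand): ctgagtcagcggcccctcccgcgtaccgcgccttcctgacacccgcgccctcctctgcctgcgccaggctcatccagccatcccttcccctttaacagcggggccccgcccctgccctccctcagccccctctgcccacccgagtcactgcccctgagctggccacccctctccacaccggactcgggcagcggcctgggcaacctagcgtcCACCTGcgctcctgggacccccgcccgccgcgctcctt
Hand2 (chr16:37931489-37931738, minus strand): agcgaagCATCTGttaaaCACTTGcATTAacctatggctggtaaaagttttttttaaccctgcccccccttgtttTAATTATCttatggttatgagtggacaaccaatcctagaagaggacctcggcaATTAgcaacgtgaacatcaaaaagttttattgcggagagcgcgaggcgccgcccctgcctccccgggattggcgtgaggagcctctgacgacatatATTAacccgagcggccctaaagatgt
Hand1 (chr10:42509685-42509934, minus strand): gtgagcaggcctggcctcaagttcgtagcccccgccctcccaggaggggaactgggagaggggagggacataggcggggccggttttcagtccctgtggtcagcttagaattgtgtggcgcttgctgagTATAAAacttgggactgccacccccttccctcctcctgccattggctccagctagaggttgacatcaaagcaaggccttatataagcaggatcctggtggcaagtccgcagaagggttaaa

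All 7 factors with a value also had a promoter sequence. The Hand2 promoter held 2 E-boxes, 1 GATA core and 5 TAAT cores, and its GC content was 48.0%, below the median of 52.0% over 27455 rat promoters of the same length. Those of Phox2a and Tlx2 were GC-rich, at 72.0% and 73.2%. Phox2a held 1 GATA core, Tlx2 held 1 E-box and Hand1 held the only TATAAA among the 7. Among the factors that were lower in SHR, Isl1 held 1 E-box, 1 GATA core and 1 TAAT core, Gata2 held 1 TAAT core and Gata3 held 1 E-box. These matches are common: an E-box was found in 65.2% of all promoters, GATA in 55.1%, TAAT in 56.3% and TATAAA in 13.1%. A match is a description of the letters and not a bound site.

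Phox2a was the most abundant of the factors in both strains. This paired-type homeodomain protein binds the Dbh promoter. Its level was 6.03 per 10000 in Wistar neurons, rank 177 among all genes, and 7.82 in SHR neurons, rank 156. It was higher in SHR by a ratio of 1.30, a log2 difference of 0.33.

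The GATA zinc finger factors were both lower in SHR. As a ratio, Gata2 was lower by less than the median of the 7621 genes compared below. It thus turned higher when the median ratio of those genes was set to 1. As a log2 difference it was lower by more than their median, at -0.15 against -0.052. Gata2, at rank 291 in Wistar and 371 in SHR, had a mean of 4.56 per 10000 in Wistar neurons and 3.99 in SHR neurons, so that Wistar was higher by a ratio of 1.14, with a log2 difference of -0.15. Gata3 had 0.743 per 10000 in Wistar neurons and 0.595 in SHR neurons, higher in Wistar by a ratio of 1.25, with a log2 difference of -0.13. Gata2 stood above Gata3 in both libraries, 6.13 times in Wistar and 6.71 times in SHR. Such ratios within a library do not change with the scaling of its total. The GATA factors of blood, heart and gut were at or near 0. Of these, Gata1, Gata5 and Gata6 were listed at 0 in both libraries, and Gata4 was listed at 0.000264 per 10000 in Wistar neurons and at 0 in SHR neurons.

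The homeodomain factors Isl1 and Tlx2 stood in opposite order in the strains. By level, Isl1 ranked 527 among all genes in Wistar and 721 in SHR, and Tlx2 ranked 1030 and 594. Isl1, a LIM homeodomain factor, had a mean of 2.80 per 10000 in Wistar neurons and 2.17 in SHR neurons, higher in Wistar by a ratio of 1.29 and with a log2 difference of -0.26. Tlx2 had 1.59 per 10000 in Wistar neurons and 2.58 in SHR neurons, higher in SHR by a ratio of 1.62, and its log2 difference of 0.46 was the highest of the 7. The level of Tlx2 was 0.568 times that of Isl1 in Wistar and 1.19 times in SHR. Their relatives were at or near 0. Isl2 and Tlx1 were listed at 0 in both libraries, and Tlx3 was listed at 0 in Wistar and at 0.000792 per 10000 in SHR.

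Hand1 and Hand2, the basic helix-loop-helix factors, had the lowest levels, and both were higher in SHR. Hand2 had a mean of 0.250 per 10000 in Wistar neurons and 0.452 in SHR neurons, the largest ratio among the factors at 1.81, with a log2 difference of 0.22. Hand1 had 0.411 per 10000 in Wistar neurons and 0.507 in SHR neurons, a ratio of 1.23 and a log2 difference of 0.095. Hand1 thus had the higher mean of the pair in both libraries, by 1.64 times in Wistar and 1.12 times in SHR. Whether the annotation covers both 3' ends equally was not checked. By the bound above, the Hand2 means rest on at most 1791 molecules in Wistar and 1156 in SHR, the fewest of the 7, and those of Phox2a on at most 43151 and 20015. For Hand1 the bounds were 2939 and 1296, and for Gata3 5316 and 1523.

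**Figure D1:**
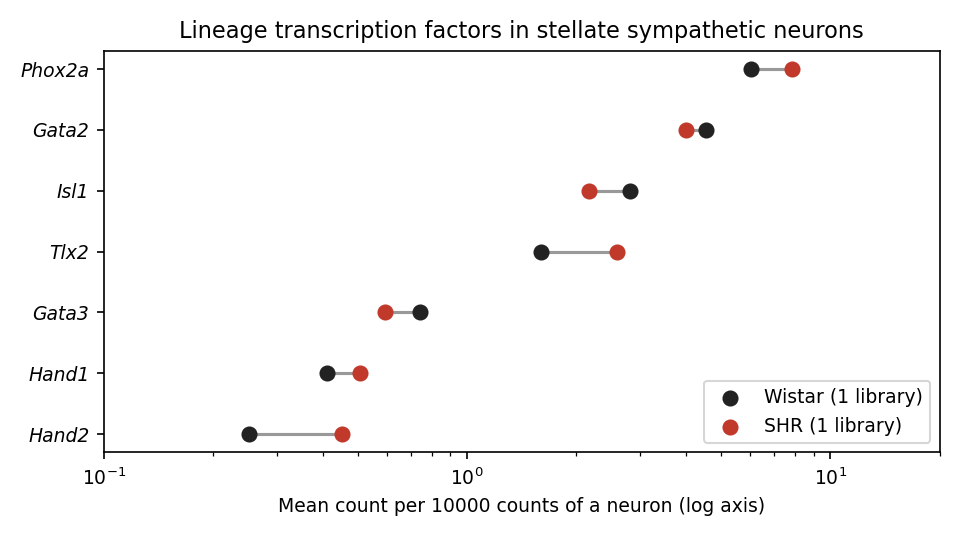
Mean count per 10000 counts of a neuron (log axis) for the 7 lineage factors with a value, in Wistar (black) and SHR (red), 1 library each, with a grey line joining the strains. Phox2a is highest in both, Phox2a, Tlx2, Hand1 and Hand2 lie further right in SHR, and Gata2, Gata3 and Isl1 further left, of which Gata2 turned higher with the median ratio of all genes set to 1.

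Summed, the 7 factors had 16.4 per 10000 in Wistar neurons and 18.1 in SHR neurons, a ratio of 1.11. The make-up of that sum differed between the libraries. Phox2a took 36.8% of it in Wistar and 43.2% in SHR, and Tlx2 9.72% and 14.2%. Gata2 took 27.8% in Wistar and 22.0% in SHR, and Isl1 17.1% and 12.0%. The order of levels in Wistar was Phox2a, Gata2, Isl1, Tlx2, Gata3, Hand1 and Hand2, and in SHR it differed only in that Tlx2 stood above Isl1. Without replicates it cannot be said which neighbours in this order differ beyond their spread.

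All 7 factors passed the minimum used for comparison with other genes, a level of 0.1 per 10000 or more when the libraries are averaged, which 7621 genes passed. Of the 7, 3 were lower in SHR, where 65.6% of all genes past the minimum were lower, and 4 were higher, against 34.4%. None of the 7 was lower by a ratio of 1.5 or more, against 26.5% of all genes, and 2, Hand2 and Tlx2, were higher by that ratio, against 5.22%. The median log2 difference of the 7 was 0.095, and that of all genes past the minimum was -0.052. As a ratio without the added 1, the median gene stood at 0.863 times its Wistar level in SHR, a log2 ratio of -0.21. Set against that median, Phox2a at a log2 ratio of 0.59 also passed the ratio of 1.5, which made 3 factors higher by it. Setting the median to 0 raises every ratio, so at least 5.22% of all genes were higher by 1.5 there. The exact share was not computed. Gata2 moved from -0.19 to 0.022, which left Gata3 at -0.11 and Isl1 at -0.16 as the factors that were lower. The background depends on the level. Among the 1676 genes with an average of at least 1 per 10000, 45.5% were lower in SHR, their median log2 ratio was 0.060, against which Gata2 stood at -0.25, and of the 4 factors at that level 2 were lower and 2 higher, against 54.5% of genes higher. There 1 factor, Tlx2, was higher by a ratio of 1.5 or more and none was lower by it, against 10.3% and 11.6% of genes. In the order of all 7621 differences, 1.68% of genes were further up than Tlx2, 4.24% than Phox2a, 7.96% than Hand2 and 16.8% than Hand1. Isl1 had 10.6% of genes below it, Gata2 23.5% and Gata3 29.0%. This order follows the differences with 1 added, which bring genes with low means nearer to 0 than their ratios do. By ratio, Hand2 stood above Tlx2 and Phox2a, and at least 5.22% of genes stood above Phox2a. At least 26.5% of genes stood below Isl1 by ratio, and Gata2 stood above the median gene.

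**Figure D2:**
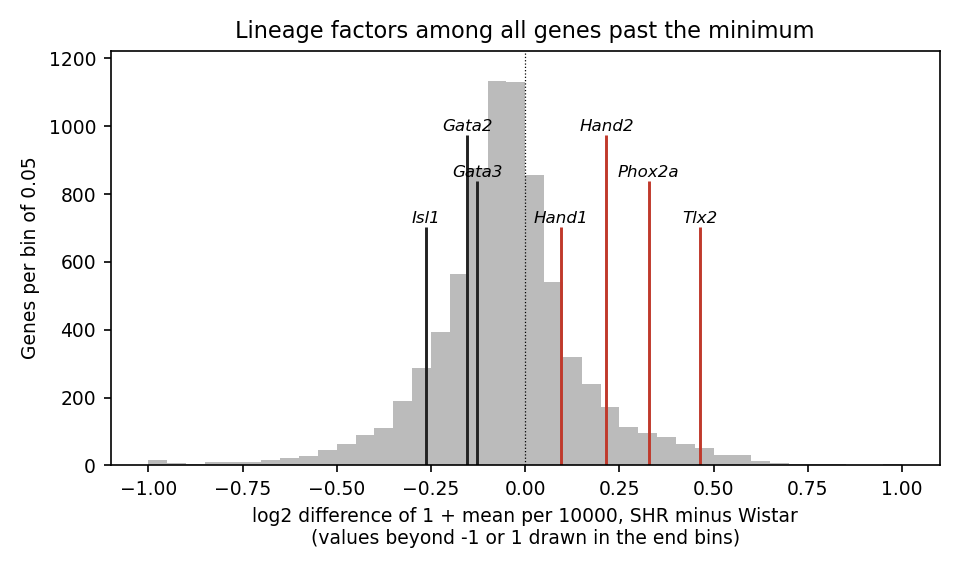
Histogram of the log2 difference (SHR minus Wistar) of the 7621 genes past the minimum, as genes per bin of 0.05, with a line at each lineage factor (red higher in SHR, black lower). The genes centre below 0, at a median of -0.052, and by this difference Tlx2 at 0.46 and Phox2a at 0.33 stand in the right-hand tail. The constant added to each mean brings genes with low means nearer to 0 than their ratios do. By ratio, Hand2 stood above Tlx2 and Phox2a, and at least 5.22% of genes stood above Phox2a.

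The factors that were higher in SHR have shorter genes than those that were lower. The 7291 genes past the minimum with a known span were split into deciles by the span of the gene in GRCr8, used only as a rank. In the shortest decile 27.0% of genes were lower in SHR, and in the longest 85.6%. Phox2a, Tlx2, Hand2 and Hand1 all lie in the shortest decile, whose median log2 difference was 0.087. Isl1 lies in the third decile, Gata2 in the fourth and Gata3 in the sixth, where 56.2%, 65.0% and 72.4% of genes were lower. Set against its own decile, Hand1 stood at the middle, with 52.3% of genes below it, and Hand2 had 71.1%, Phox2a 81.9% and Tlx2 92.0% of genes below it. A ratio of 1.5 or more in favour of SHR was found for 17.1% of the genes in the shortest decile. Of its own decile, Isl1 had 6.58% of genes below it, Gata2 17.8% and Gata3 25.8%. By this difference, with 1 added to each mean, each factor thus lay on the same side of the median of its decile as of 0. Positions within the deciles were not computed by ratio. The part of gene span in these differences was not tested.

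**Figure D3:**
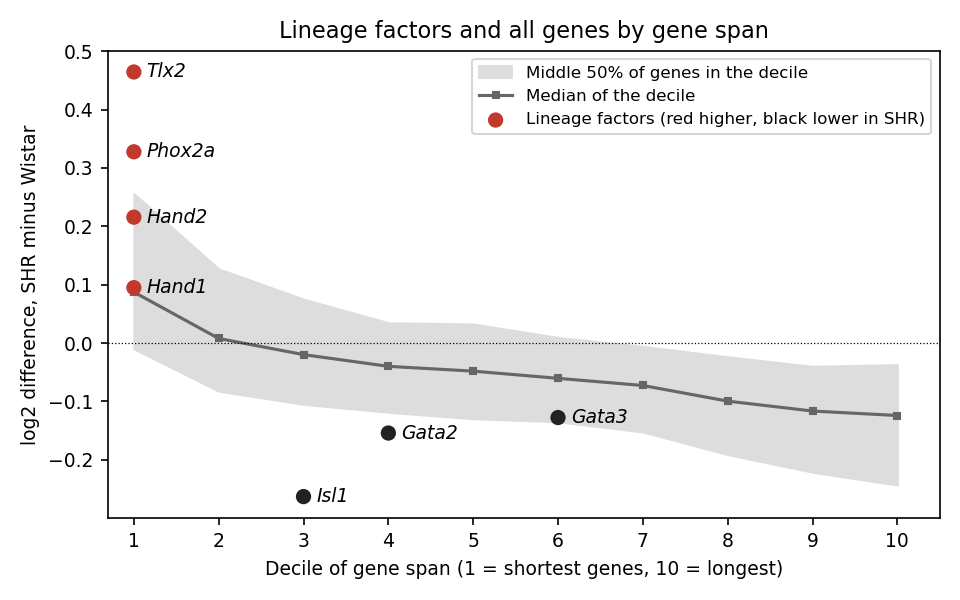
The log2 difference (SHR minus Wistar) against the decile of gene span, from the shortest genes (1) to the longest (10). The grey line is the median of each decile, the band holds the middle 50% of its genes, and points are the lineage factors. The medians go down from 0.087 to -0.12, with Tlx2 and Phox2a above the band of the shortest decile and Isl1 and Gata2 below the bands of theirs. The difference has 1 added to each mean, which brings genes with low means nearer to 0. Positions by ratio were not computed.

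Other factors of sympathetic specification were low, apart from Tfap2b. This AP-2 factor had 3.51 per 10000 in Wistar neurons and 2.76 in SHR neurons, a log2 difference of -0.26 close to that of Isl1. Sox11 and Hmx1 were under the minimum, with Sox11 at 0.0300 per 10000 in Wistar neurons and 0.0114 in SHR neurons and Hmx1 at 0.0164 and 0.0123. Of the 5 genes in this list, 4 have a value, and Tfap2b was the only 1 past the minimum. Insm2, the relative of Insm1, was listed at 0.0191 per 10000 in Wistar neurons and 0.0249 in SHR neurons.

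The genes of proteins that pair with these factors did not share one direction. Over all 21 partner genes, 13 passed the minimum, of which 7 were lower and 6 higher, beside 65.6% and 34.4% of all genes. Of these, 3 were lower and 4 higher by a ratio of 1.5 or more, beside 26.5% and 5.22% of all genes. The Hand factors bind DNA together with E proteins, and Id proteins hold E proteins off DNA. The E protein genes Tcf3 and Tcf4 were lower in SHR, with Tcf3 at 0.460 per 10000 in Wistar neurons and 0.236 in SHR neurons and Tcf4 at 0.682 and 0.360. The Id genes were higher in SHR, all 4 of them. Id1 had 0.813 per 10000 in Wistar neurons and 1.81 in SHR neurons, Id3 had 0.674 and 1.47, Id2 had 0.245 and 0.320, and Id4 had 0.123 and 0.185. The Id genes all lie in the shortest decile of gene span, where 27.0% of genes were lower, Tcf3 lies in the fifth and Tcf4 in the longest. The third E protein gene, Tcf12, was under the minimum, at 0.105 per 10000 in Wistar neurons and 0.0569 in SHR neurons. The E protein genes, the Id genes other than Id1, and Zfpm1, Ldb1 and Kdm1a were singled out after their values were seen. Lmo1, a LIM-only protein gene, had 2.01 per 10000 in Wistar neurons and 3.22 in SHR neurons, and Meis1, a homeodomain cofactor, had 1.63 and 1.09. Zfpm1, a cofactor of GATA factors, had 0.784 per 10000 in Wistar neurons and 0.733 in SHR neurons, and Ldb1, which joins LIM homeodomain factors such as Isl1, had 0.249 and 0.152. With the median difference of all genes set to 0, or their median ratio set to 1, Zfpm1 and the corepressor gene Kdm1a, at 0.488 per 10000 in Wistar neurons and 0.453 in SHR neurons, were higher too, which gave 5 lower and 8 higher.

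Genes listed here as noradrenergic targets of the factors did not all share one direction. Which of them the factors control in these neurons was not tested. Of 8 such genes, all past the minimum, 7 were lower in SHR and 1 higher, beside 65.6% and 34.4% of all genes, with 4 lower and 1 higher by a ratio of 1.5 or more, beside 26.5% and 5.22%. The 6 that average at least 1 per 10000 were all lower, 3 of them by that ratio, where 45.5% of genes at that level were lower and 11.6% by that ratio. Th had a log2 difference of -0.0095, which turned to 0.027 when the total left out ribosomal protein and mitochondrial genes and to 0.043 when the median difference of all genes was set to 0, so that 6 were lower and 2 higher there. With the median ratio of all genes set to 1, Slc6a2 was higher too, which gave 5 lower and 3 higher. The noradrenaline transporter gene Slc6a2 stood at 15.9 per 10000 in Wistar neurons and 15.2 in SHR neurons. Dbh, the enzyme that makes noradrenaline and a known Phox2a target, had 10.2 per 10000 in Wistar neurons and 6.36 in SHR neurons. The ratio of Phox2a to Dbh was thus 0.592 in Wistar and 1.23 in SHR, and that of Phox2a to Th 0.591 and 0.773. The gene that was higher, Gch1, encodes the enzyme that starts the synthesis of the Th cofactor, and had 0.220 per 10000 in Wistar neurons and 0.669 in SHR neurons. Gch1 was singled out after its values were seen. These 8 genes lie in the second to the ninth decile of gene span, in which 47.3% to 83.8% of genes were lower. Phox2a lies in the shortest, in which 27.0% were lower.

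Genes of the BMP pathway that passed the minimum were lower in SHR. Of 8 genes, 5 passed the minimum, all of them lower and 2 by a ratio of 1.5 or more, beside 65.6% and 26.5% of all genes. The signal transducer Smad1 had 1.18 per 10000 in Wistar neurons and 0.869 in SHR neurons, and the receptor genes Bmpr2 and Bmpr1a had 0.474 and 0.330 and 0.213 and 0.127. These 5 genes lie in the seventh to the last decile of gene span, in which 76.1% to 85.6% of genes were lower.

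**Figure D4:**
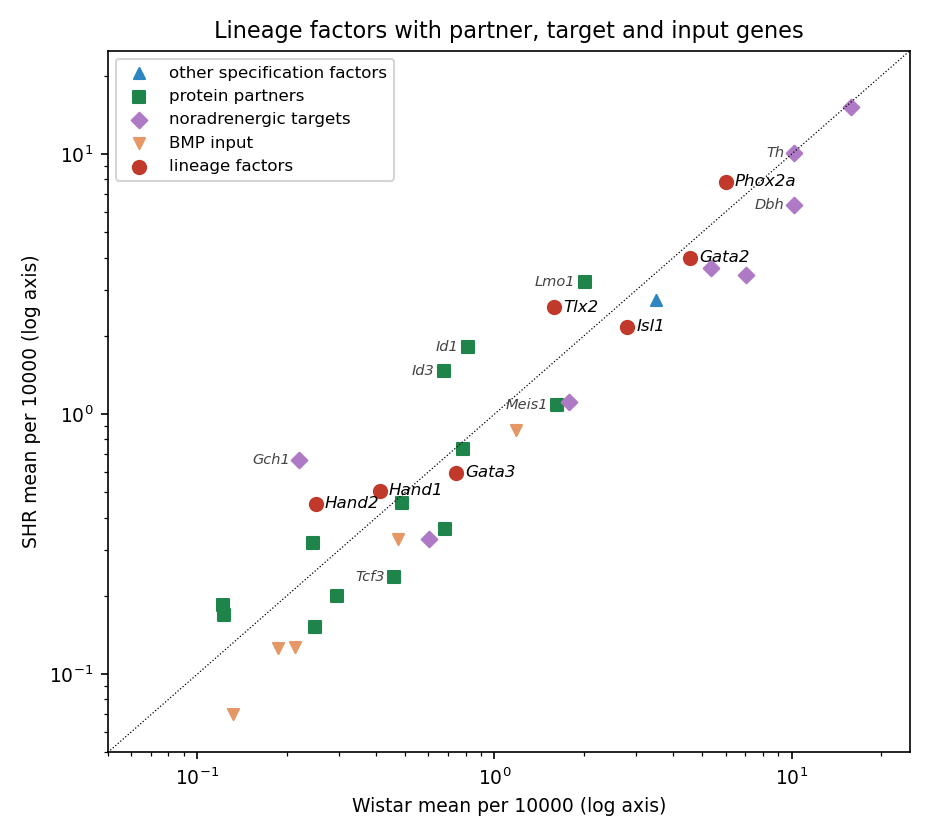
SHR against Wistar mean per 10000 (log axes, 1 library each) for the lineage factors (red circles) and the genes past the minimum in the lists of specification factors, protein partners, noradrenergic targets and BMP input. The dotted line marks equal levels. Id1, Id3, Lmo1, Gch1, Hand2 and Tlx2 lie above it, and Dbh, Isl1, Meis1 and Tcf3 below.

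The genes nearest to each of the 4 more abundant factors were found by distance over the 2 libraries on the log2 scale of 1 plus the mean. For Phox2a these were Hint1, S100a4 and Rpl35, and for Tlx2 Ndufa2, Hras and Ndufa7. For Gata2 they were Morf4l2, Maged1 and Anxa6, and for Isl1 Srebf2, Trim2 and Clasp2. With only 2 values per gene a small distance is common. Between 6 and 19 genes lay within 0.1 of each of these factors.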

How the data were processed

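The authors scaled each cell to 10000 counts, averaged every gene over the sympathetic neurons that they had selected in a library, added 1 and deposited the natural log. The submitters' processing notes name Cell Ranger 3.0.2, Seurat 3 and the build Rnor_6.0. Filters on cells, the treatment of doublets and the number of neurons are not given in the sources used here. Doublets and cells of other types cannot be looked for in means. The authors' own comparison of the strains (fold changes, p-values and shares of cells) was not used. Genes whose 3' ends are incomplete in the annotation are counted less in such data.

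The natural log was undone, which gave a sum of 10000 per library, and 4 lines whose gene name occurs more than once were dropped. Differences, ratios, ranks and shares were computed with Python 3.11.15, NumPy 2.4.6 and pandas 2.3.3, figures were drawn with matplotlib 3.10.9, and the calculations were tested on simulated data. The pseudocount was 1 per 10000, the minimum an average of 0.1 and the ratio for a call 1.5. Gene spans were matched by symbol or synonym for 95.7% of the genes past the minimum. Named genes are the 8 factors, the 3 most abundant genes of each list, the 3 genes nearest to each abundant factor and those marked as chosen after their values were seen, as were the genes listed at or near 0. Some listed genes are not reported here and were left out of the counts and sums of their lists. The factors and lists were chosen with earlier results of these data known. The choice of promoters shown, the bound on molecules and the pairs of genes whose ratios are given were made after the values were seen. With 1 library per strain no test was made.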

Additional observations from a re-analysis of the deposited data

How the results depend on the processing

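No paired analysis was possible because there is a single library per strain. No factor changed direction under the pseudocounts, the other totals or the centring of the log2 differences. Gata2 did when log2 ratios were centred on their own median over the same 7621 genes, which adds 0.21 to each and was chosen after the data were seen. Its log2 ratio of -0.19 became 0.022, which left 2 factors lower. The log2 difference ranged from 0.15 to 0.38 for Phox2a, 0.12 to 0.69 for Tlx2, 0.028 to 0.83 for Hand2 and 0.013 to 0.30 for Hand1, and from -0.37 to -0.073 for Isl1, -0.19 to -0.057 for Gata2 and -0.32 to -0.02 for Gata3. These ranges come mostly from the pseudocount, which cannot change a sign. The median of the 7, 0.095, became 0.25, 0.30 and 0.013 with pseudocounts of 0.1, 0.01 and 10, and 0.15 with the median of all genes past the minimum set to 0. That centring adds 0.052 to each log2 difference. With the ratios centred on their own median, 3 factors were higher by a ratio of 1.5 or more in place of 2, the third being Phox2a. The share of all genes higher by that ratio also rises with this centring and was not computed. The count of factors was 1 with a minimum of 1 per 10000, which leaves 4 factors, and 0 with a ratio of 2. Leaving mitochondrial and ribosomal protein genes, marker genes of other cell types or the 10 most abundant genes out of the total kept 3 factors lower and 4 higher. For the marker genes this was bound to hold. Their largest sum, that of glia in Wistar, was 1.68 per 10000, too small a part of the total to move a factor. Leaving them out also takes no RNA of other cells out of a factor's own mean, so it is no test of such RNA. By the log2 difference set against the median of the genes in the same decile of span, 3 factors were again lower. This was not computed by ratio. The bound on molecules is an upper one, so the counting error of each mean is not known.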
